A study of Mus musculus with 3647 samples.

Results

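Spp1-only neurons are the GABAergic nuclei of the thalamic reticular nucleus (TRN) of the mouse in which transcripts of Spp1, the secreted phosphoprotein osteopontin, were found and transcripts of Ecel1, a membrane metalloendopeptidase, were not. They were 37.7% of the reticular GABAergic nuclei, about 270 of about 720, among 1447 TRN nuclei with expression values in a series of 3647 samples that were each 1 nucleus or cell. A nucleus counted as reticular GABAergic when Snap25, Gad1 and Gad2 were above 0, when Gad1 and Gad2 together reached 100 TPM (transcripts of a gene per length, as a share of all transcripts of the nucleus scaled to a fixed total) and exceeded Slc17a6, and when Pvalb or Six3 was above 0. The other classes from the same plates were Ecel1-only nuclei (about 230), nuclei with neither transcript (about 180, called negative below) and nuclei with both (38). The nuclei came from 8 plates sorted with a DNA dye and an antibody to the neuronal protein NeuN and from 13 plates sorted on the dye alone, called unselected. Nuclei from plates of TRN-adjacent tissue (thalamus and globus pallidus) and TRN neurons whose contents were collected through a recording pipette (Patch-seq) were classified by the same rule. Genotype, strain, age and treatment are not given in the labels used here. The labels name no animal either, so every class counts as 1 sample, no p-value was computed, and ranges over plates describe the spread.

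The TRN is a thin shell of inhibitory neurons around the thalamus, which receives branches of axons running between cortex and thalamus and sends its own axons to thalamic relay neurons. Its neurons make GABA with the enzymes Gad1 and Gad2, usually contain the calcium buffer parvalbumin (Pvalb), and can fire brief high-frequency bursts on low-threshold (T-type) calcium channels. Spp1 encodes a secreted glycoprotein best known from bone, and in the brain it also marks some large, fast-firing neurons and is made by activated microglia.

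The promoter windows of Spp1, which chose the nuclei, and of Scn4b, Syt2 and Ntng2, genes far higher in these nuclei that are described below, are shown for reference. Each runs from 250 bases before to 50 bases after the annotated start, 5′ to 3′ on the gene's strand, from RefSeq on build GRCm38.p6. For Spp1 and Syt2 RefSeq has another start downstream, whose window held none of the motifs searched, and the window of the upstream start is printed. Most of the Scn4b window lies inside the gene as GENCODE places it, with a start at 45138395 on the plus strand. The Ntng2 window lies inside the gene as GENCODE places it, with a start at 29253005 on the minus strand. It also lies inside 6530402F18Rik, an overlapping transcript of the same strand, so it may not be the main Ntng2 promoter. Capitals mark the letters TATAAA in Spp1, which lie here farther upstream of the start than a TATA box does, and the letters AAGGTCA, a half-site motif of the oestrogen-related receptors that lies here on the opposite strand as TGACCTT, in Syt2.
Spp1, chr5:104434861-104435160, plus strand: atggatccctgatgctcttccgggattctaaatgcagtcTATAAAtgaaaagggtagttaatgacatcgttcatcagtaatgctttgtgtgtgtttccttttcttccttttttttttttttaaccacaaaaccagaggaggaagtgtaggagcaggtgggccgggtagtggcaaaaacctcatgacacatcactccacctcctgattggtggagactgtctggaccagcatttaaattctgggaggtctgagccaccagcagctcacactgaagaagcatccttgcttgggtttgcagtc
Scn4b, chr9:45138374-45138673, plus strand: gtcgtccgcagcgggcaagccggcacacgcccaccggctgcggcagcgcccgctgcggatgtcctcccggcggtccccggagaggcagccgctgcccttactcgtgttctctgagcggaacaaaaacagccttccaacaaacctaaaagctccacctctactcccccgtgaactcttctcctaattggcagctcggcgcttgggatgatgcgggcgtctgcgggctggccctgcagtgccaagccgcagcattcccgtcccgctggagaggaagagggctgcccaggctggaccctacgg
Syt2, chr1:134646362-134646661, plus strand: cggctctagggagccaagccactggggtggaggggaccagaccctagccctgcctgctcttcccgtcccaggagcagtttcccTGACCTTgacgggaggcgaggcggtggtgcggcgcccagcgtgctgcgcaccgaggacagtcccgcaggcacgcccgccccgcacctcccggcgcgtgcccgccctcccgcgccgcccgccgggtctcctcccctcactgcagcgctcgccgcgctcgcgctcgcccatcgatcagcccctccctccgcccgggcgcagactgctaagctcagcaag
Ntng2, chr2:29248050-29248349, minus strand: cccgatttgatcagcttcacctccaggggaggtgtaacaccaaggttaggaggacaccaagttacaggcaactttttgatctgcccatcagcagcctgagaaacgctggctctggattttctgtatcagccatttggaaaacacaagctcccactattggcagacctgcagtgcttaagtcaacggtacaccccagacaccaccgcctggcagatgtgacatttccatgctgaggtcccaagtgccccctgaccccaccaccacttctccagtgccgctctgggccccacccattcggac
The windows of Scn4b and Ntng2 held neither motif, nor CACGTG, the E-box letters. Searched on both strands, AAGGTCA was in 4.72% of all 32851 promoter windows, in 6 of 58 windows (10.3%) of the genes called higher in Spp1-only than in Ecel1-only nuclei by the rule given below, and in 3 of 53 windows (5.66%) of those called lower. All windows cover 27025 genes, the 58 cover 47 genes and the 53 cover 35. Some genes thus count more than once, and other called genes had no window. TATAAA was in 13.6% of all windows, in 10.3% of the higher and in 18.9% of the lower genes' windows. CACGTG was in 7.15%, 8.62% and 5.66% of the same windows. These are counts of letters, and no binding was measured.

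Spp1 ranged from 11.59 to 15586.01 TPM in the nuclei it chose, with quartiles of 849.41, 1654.74 and 2892.14 TPM. Only 10 of these nuclei were under 100 TPM. The lowest sum of Gad1 and Gad2 inside the rule was 184.43 TPM, and 1 nucleus that met every other condition was left out at 58.54 TPM. Another 1 nucleus failed only for want of Pvalb and Six3. The lowest Ecel1 level that moved a nucleus from Spp1-only to the class with both was 9.36 TPM. Beyond Gad1 and Gad2, Slc32a1, which loads GABA into vesicles, was found in 76.1% of Spp1-only nuclei, and the forebrain transcription factors Isl1 and Meis2 in 81.3% and 80.9%. Slc32a1, Isl1 and Meis2 were not part of the rule, and none of them is particular to the reticular nucleus. Pvalb was found in 98.2% and Six3 in 95.6% of the Spp1-only nuclei, but both were part of the rule, which needed 1 of them.

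Spp1-only nuclei had more detected genes, at a median of 5264, than Ecel1-only nuclei (4636) and negative nuclei (4397.5). TPM keep no read counts, so read depth is not known, and the number of detected genes was used in its place. The same order held on NeuN-selected plates (5400, 4796.5 and 4602) and on unselected plates (4633, 4320 and 3987). Over 8 oligodendrocyte markers, the mean summed level was 643.7 TPM in Spp1-only nuclei (plate means 4.22 to 1060.95), 965.6 TPM in Ecel1-only nuclei (3.59 to 3325) and 2496 TPM in negative nuclei (75.1 to 23527). Over 8 astrocyte markers it was 604.8, 400.6 and 698.97 TPM, and 2 of the 8, Slc1a2 and Aldoc, were found in at least 20% of Spp1-only nuclei. Of 8 microglial markers, 2, Cx3cr1 among them, were found in at least 20% of Spp1-only nuclei and 3 (C1qa, C1qb and Tyrobp) were at 0 in all of them, and the summed level averaged 40.9, 63.95 and 39.8 TPM in the same order of classes. Of 12 markers of the globus pallidus and the medial ganglionic eminence, 3 (Nxph1, Erbb4 and Arhgap6) were found in at least 20%, the most common in 80.5%, and Lhx8 was at 0. Their summed level averaged 490.8 TPM in Spp1-only nuclei, 449.2 TPM in Ecel1-only nuclei and 394.6 TPM in negative nuclei. None of 9 relay neuron, 8 striatal and 7 vascular markers reached 20% of Spp1-only nuclei, with highest shares of 19.5%, 15.4% and 19.9%. The summed relay markers averaged 52.8, 42.5 and 74.7 TPM, the striatal ones 17.8, 38.5 and 299.1 TPM and the vascular ones 19.5, 11.3 and 33.9 TPM in Spp1-only, Ecel1-only and negative nuclei. At 0 in all Spp1-only nuclei were Gbx2 and Lhx2 (relay), Adora2a (striatal) and Cldn5, Flt1, Pecam1 and Rgs5 (vascular), and Gbx2, Lhx2 and Lhx8 were at 0 in the Ecel1-only and negative nuclei as well. The part of detected genes and of these markers in the differences below was not tested. Values within limits on detected genes and on glial markers, given below, are a description.

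Spp1-only nuclei made up 41.8% of reticular GABAergic nuclei on NeuN-selected plates (exact binomial 95% interval 37.4 to 46.2%) and 28.2% on unselected plates (61 nuclei, 22.3 to 34.7%). These intervals cover counting error only. The 8 NeuN-selected plates held 18, 23, 22, 29, 33, 27, 25 and 34 Spp1-only nuclei, in the order of their names. By plate the share ran from 30.5% to 51.5% on the 8 NeuN-selected plates, with a median of 40.8%. On the 13 unselected plates it ran from 0 to 11 of 25 nuclei, with a median of 28.6%, so the plates of both sorts overlapped. The 3 plates without any Spp1-only nucleus were all unselected and shared a name prefix. The 4 plates of that prefix held 4 Spp1-only nuclei among 38 (10.5%), against 57 (32.02%) on the other unselected plates. All NeuN-selected plates belong to another set of plates, so sort and plate set cannot be told apart.

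**Figure D1:**
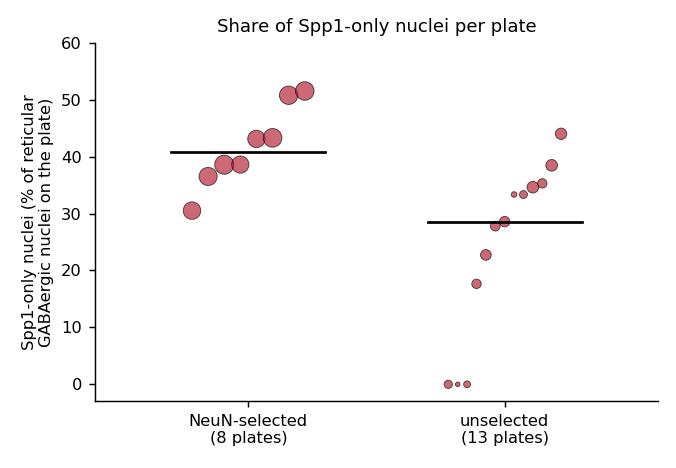
Share of Spp1-only nuclei among the reticular GABAergic nuclei of each plate (vertical axis, percent), for NeuN-selected plates (left) and unselected plates (right). Points are plates with area in proportion to the number of reticular GABAergic nuclei, spread sideways in order of their share, and bars are medians over plates, 40.8% and 28.6%; 3 unselected plates lie at 0.

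The first comparison asked which genes separate Spp1-only from Ecel1-only nuclei. The Spp1-only nuclei carried far more of Scn4b, Syt2 and Ntng2 transcripts, of the heavy and medium neurofilaments and of the potassium channels Kcna1 and Kcna2, and far less of Zcchc12, Gap43 and Atp1b2 transcripts. A gene was called when its log2 ratio of mean TPM plus 1 was at least 1 in size and had the same sign on all 15 plates with at least 5 nuclei of each class. Genes entered when found in at least 20% of the nuclei and at a mean of at least 10 TPM in 1 of the classes. Of 8785 genes that entered, 61 were called higher (0.694%, Spp1 among them) and 53 lower (0.603%, Ecel1 among them). The rule asks much of noisy plates, so a gene it left out is not shown to be alike. When mean log2 values were subtracted instead, a scale that weighs how many nuclei hold a transcript, 1.81% of genes were called higher and 0.706% lower, and the median over all genes was 0.36 in place of 0.06.

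Scn4b encodes the sodium channel beta-4 subunit, which allows the resurgent sodium current of fast-firing neurons. Its plate means were 124.7, 185.4 and 482.5 TPM in Spp1-only nuclei (lowest, median and highest plate), against 0, 16.04 and 66.2 TPM in Ecel1-only nuclei. The lowest Spp1-only plate was thus above the highest Ecel1-only plate. Scn4b was found in 88.2% of Spp1-only and 12.02% of Ecel1-only nuclei, and its log2 ratio was 3.35 (SD over plates 2.00). Scn8a, the pore-forming sodium channel of axon initial segments and nodes, was also called, with a log2 ratio of 1.10. These were the 2 called higher among 11 sodium channel genes that entered, and none was called lower. Scn3b, the beta-3 subunit, averaged 3.51 TPM in Spp1-only nuclei and 80.8 TPM in Ecel1-only nuclei and was lower on 14 plates and higher on 1, so it was not called. The list's median log2 ratio was 0.16, against 0.06 over all genes.

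Among potassium channels, Kcna1 and Kcna2, low-threshold channels of axons, were called higher out of 9 Kv1 and Kv3 genes that entered, and none was called lower. Kcna1 plate means were 122.7, 238.4 and 366.2 TPM in Spp1-only nuclei, against 38.8, 75.3 and 195.2 TPM in Ecel1-only nuclei. These ranges overlapped, although every single plate had the higher mean in Spp1-only nuclei, with a log2 ratio of 1.58 (SD 0.56). Kcna2 had a log2 ratio of 1.52 (SD 0.62). The median of the 9 genes was 1.12. Kcnc4, a Kv3 channel of fast repolarisation, had a log2 ratio of -2.39 and was higher on 1 plate, so it was not called. Among 14 other potassium channel genes, Kcnk1, a two-pore leak channel, was the only one called, at 1.13.

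The T-type calcium channels that carry reticular bursts differed by subunit, although none of the 7 T-type, SK and HCN genes that entered met the rule. Cacna1h averaged 88.8 TPM in Spp1-only and 19.6 TPM in Ecel1-only nuclei and was found in 85.3% and 34.3% of them. It was higher in Spp1-only nuclei on 14 of 15 plates, with a log2 ratio of 2.12. Cacna1i gave 74.4 and 36.5 TPM, a log2 ratio of 1.01 and a higher mean on 14 plates. Cacna1g ran the other way, at 5.46 TPM in Spp1-only and 32.8 TPM in Ecel1-only nuclei, and was higher on 1 plate.

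In the vesicle release machinery, Syt2 and Vamp1 were called higher and Vamp2 lower out of 24 genes, whose median log2 ratio was -0.07. Syt2 is the fast calcium sensor of synapses with rapid release. Its plate means were 21.7, 149.5 and 270.6 TPM in Spp1-only nuclei and 0, 21.01 and 49.6 TPM in Ecel1-only nuclei. The 2 ranges overlapped at their ends, and Syt2 was found in 83.8% and 17.6% of the nuclei, with a log2 ratio of 2.83 (SD 1.93). The vesicle fusion proteins Vamp1 and Vamp2 are alternatives to each other in many synapses, and their log2 ratios were 1.78 and -1.03. On the opposite strand, Syt2 overlaps Ppp1r12b, and Vamp1 overlaps Tapbpl and Cd27. Whether the authors' counting used strand is not known here. Stx1a, a fusion partner in the presynaptic membrane, averaged 0.73 TPM in Spp1-only and 65.6 TPM in Ecel1-only nuclei. It was not called because it was listed at 0 for both classes on at least 1 plate.

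Neurofilaments, the intermediate filaments of thick axons, had the highest median of the gene groups with a value, at 1.41. Nefh plate means were 172.5, 259.9 and 450.9 TPM in Spp1-only nuclei against 5.71, 33.8 and 95.1 TPM in Ecel1-only nuclei, with no overlap between plates. Nefh (log2 ratio 2.57) and Nefm (2.00) were called, and Nefl (0.81) and Ina (0.83) were under the 2-fold limit. Nefm and Nefl overlap on opposite strands, and the sources used here do not say whether the authors' counting used strand. Of 7 perineuronal net genes, which form the matrix around fast-firing neurons, none was called although their median was 1.13. The link protein Hapln4 averaged 507.9 TPM in Spp1-only and 190.9 TPM in Ecel1-only nuclei and was higher on 14 plates.

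Among genes of GABA handling and chloride balance, Slc12a5, the chloride extruder KCC2 that sets the direction of GABA currents, was called lower at a log2 ratio of -1.24 (SD 1.598). Means by plate were 0, 30.04 and 103.5 TPM in Spp1-only nuclei against 57.9, 83.02 and 180.4 TPM in Ecel1-only nuclei, and these ranges overlapped. It was found in 36.8% of Spp1-only and 75.97% of Ecel1-only nuclei. Of the 7 genes of this group 2 were called lower and none higher. Gabrb1, a GABA-A receptor subunit, averaged 24.8 TPM in Spp1-only and 167.8 TPM in Ecel1-only nuclei (log2 ratio -2.71) and was the only one of 9 subunits called. It overlaps the neighbouring subunit gene Gabra4 on the other strand. By contrast, Gad1 averaged 3676 TPM in Spp1-only and 2249 TPM in Ecel1-only nuclei, and Gad2 597.8 and 707.5 TPM, both under the 2-fold limit, and both were part of the rule for all classes.

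Atp1b2, the beta-2 subunit of the sodium-potassium pump, was the 1 gene called out of 6 pump genes. Its plate means were 0, 3.65 and 45.1 TPM in Spp1-only nuclei and 77.8, 137.3 and 213.04 TPM in Ecel1-only nuclei, which did not overlap. Of 11 genes from the list of calcium-binding proteins and their relatives, Pcp4l1 was called higher at 2.52, and the calcium sensors Hpca (-2.32) and Ncald (-1.13) lower. Pcp4l1 was among the most abundant of the called genes, with plate means of 476.8, 896.5 and 1597 TPM in Spp1-only nuclei and 15.2, 168.4 and 307.7 TPM in Ecel1-only nuclei, again apart. Of 5 metabotropic glutamate receptors, Grm5 was called lower at -1.68, and Grm3 (1.20), Grm7 (0.90) and Grm8 (1.06) lay higher without a call. None of 14 ionotropic receptor genes was called. The median log2 ratio of these 14 genes was 0.11. Grin2a, an NMDA receptor subunit, was found in 41.9% of Spp1-only and 6.01% of Ecel1-only nuclei, with a log2 ratio of 2.28. Gria1, an AMPA receptor subunit, had the largest ratio in size of the 14 and ran the other way, at -2.91.

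The peptide somatostatin (Sst) averaged 364.6 TPM in Spp1-only and 1481 TPM in Ecel1-only nuclei and was lower on 14 of 15 plates, so the rule did not call it. None of the 3 neuropeptides that entered and none of 16 patterning transcription factors was called. Esrrb, an oestrogen-related receptor, had the largest transcription factor ratio, at 2.59, with 16.8 TPM in Spp1-only and 1.95 TPM in Ecel1-only nuclei and a higher mean on 12 plates. Groups of general cell function showed no calls. The 36 respiratory chain genes had a median of -0.08, 29 cytoplasmic ribosomal protein genes -0.44, 7 nuclear long noncoding RNAs 0.38 and 3 immediate early genes 0.07.

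**Figure D2:**
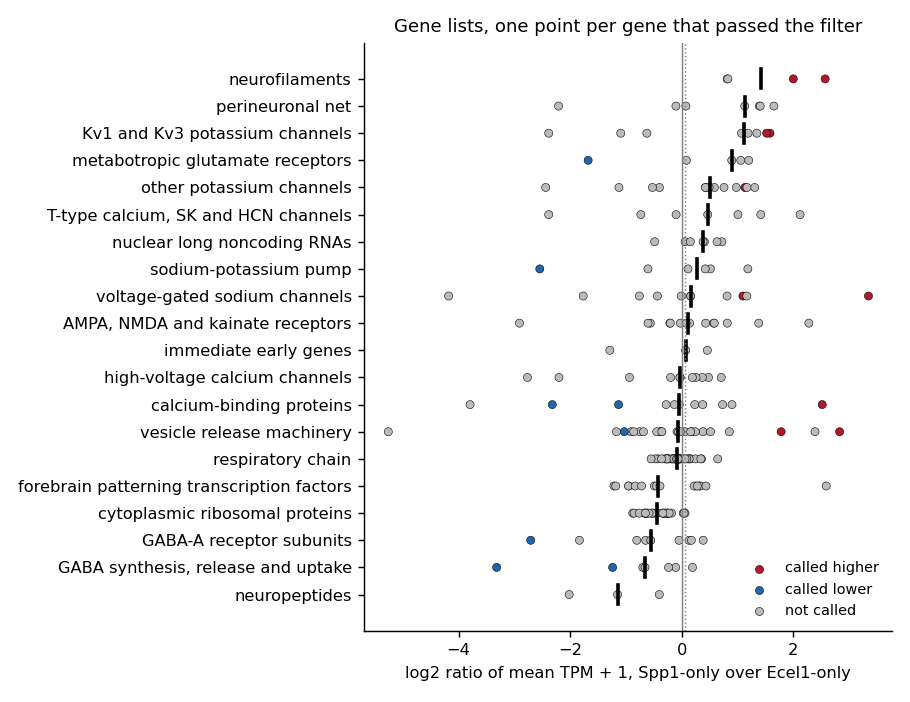
Log2 ratio of mean TPM plus 1 of Spp1-only over Ecel1-only nuclei (horizontal axis) for every listed gene that passed the filter, by gene group. Red points were called higher and blue points lower, grey points were not called, bars are group medians, and the dotted line is the median of all genes (0.06); neurofilaments lead with a median of 1.41 and neuropeptides lie lowest.

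The genes with the largest ratios among the calls were spread over many functions. Ntng2, the membrane-anchored synaptic adhesion protein netrin-G2, averaged 166.4 TPM in Spp1-only and 10.7 TPM in Ecel1-only nuclei, with plate means of 6.19, 129.3 and 401.97 TPM against 0, 1.05 and 43.01 TPM. Its log2 ratio of 3.84 was the largest of the genes called higher apart from Spp1. The noncoding transcript 6530402F18Rik (2.77) overlaps Ntng2 on the same strand, so reads of the 2 may be shared and its value is uncertain. Adm, the vasodilator peptide adrenomedullin, was found in 31.99% of Spp1-only and 3.86% of Ecel1-only nuclei (log2 ratio 3.49). Cyp11a1, the enzyme that opens steroid synthesis from cholesterol, was found in 55.5% and 8.58% (2.65). Col24a1, a fibrillar collagen, gave 3.15, F11r, the junctional adhesion molecule A, 2.81, the calcium-dependent membrane-binding copine Cpne9 2.94, Fndc3b 2.64, Ankrd33b 3.48 and the long noncoding RNA B230312C02Rik 3.48.

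Zcchc12, a transcriptional coactivator, averaged 19.6 TPM in Spp1-only and 369.5 TPM in Ecel1-only nuclei. Its plate means were 0, 0 and 136.9 TPM in Spp1-only nuclei and 166.6, 329.98 and 526.3 TPM in Ecel1-only nuclei, which did not overlap. Slc30a3, the vesicular zinc transporter, had the lowest log2 ratio of the called genes apart from Ecel1, -4.19, and was found in 1.47% of Spp1-only and 33.5% of Ecel1-only nuclei. Gap43, a protein of growing axons and presynaptic terminals, was found in 3.68% and 29.6% (-3.97). The actin regulators Fnbp1l and Fscn1 gave -4.12 and -3.005, the receptor tyrosine kinase Alk -3.73, the matrix protein Ltbp4 -3.09, Ly6h, a regulator of nicotinic receptors, -3.11, and the second copine, Cpne6, -2.92. Cpne6 and Cpne9 thus ran in opposite directions within 1 family.

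**Figure D3:**
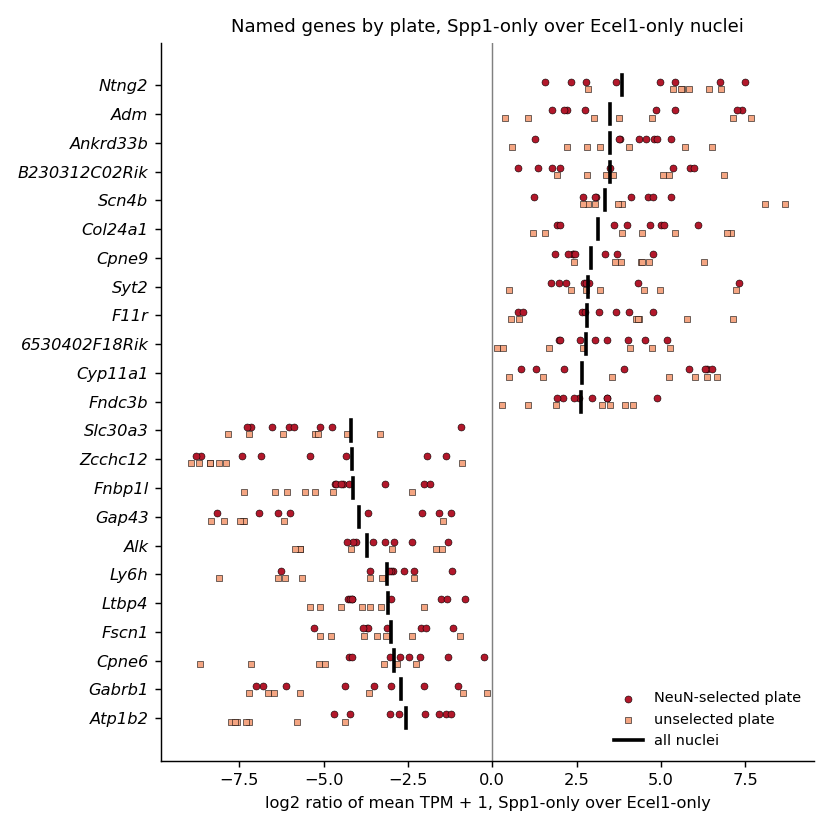
Log2 ratio of mean TPM plus 1, Spp1-only over Ecel1-only, on each of 15 plates (horizontal axis) for the 12 genes with the largest positive and 11 of the 12 with the largest negative ratio among the calls. Dark circles are the 8 NeuN-selected plates, pale squares the 7 unselected plates and black bars the ratio over all nuclei; by the rule every point of a gene lies on 1 side of 0, and Zcchc12 runs from -8.94 to -0.89.

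Single nuclei mixed these genes unevenly. Of the 12 higher genes, a Spp1-only nucleus had a median of 7 above 0 (quartiles 5 and 9), an Ecel1-only nucleus 2 and a negative nucleus 3. Of the 12 lower genes the medians were 1, 6 and 2. The share of nuclei with more of the higher than of the lower genes was 96.0% in Spp1-only, 11.6% in Ecel1-only and 47.2% in negative nuclei. These genes were chosen on the same nuclei, so the shares are a description. Median levels per nucleus were 143.3 TPM for Scn4b and 98.2 TPM for Syt2 in Spp1-only nuclei and 0 for both in Ecel1-only nuclei, whereas Cpne9 was found in most nuclei of both classes, at medians of 78.9 and 4.74 TPM. Cpne9 therefore differed mainly by level and Scn4b mainly by presence.

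**Figure D4:**
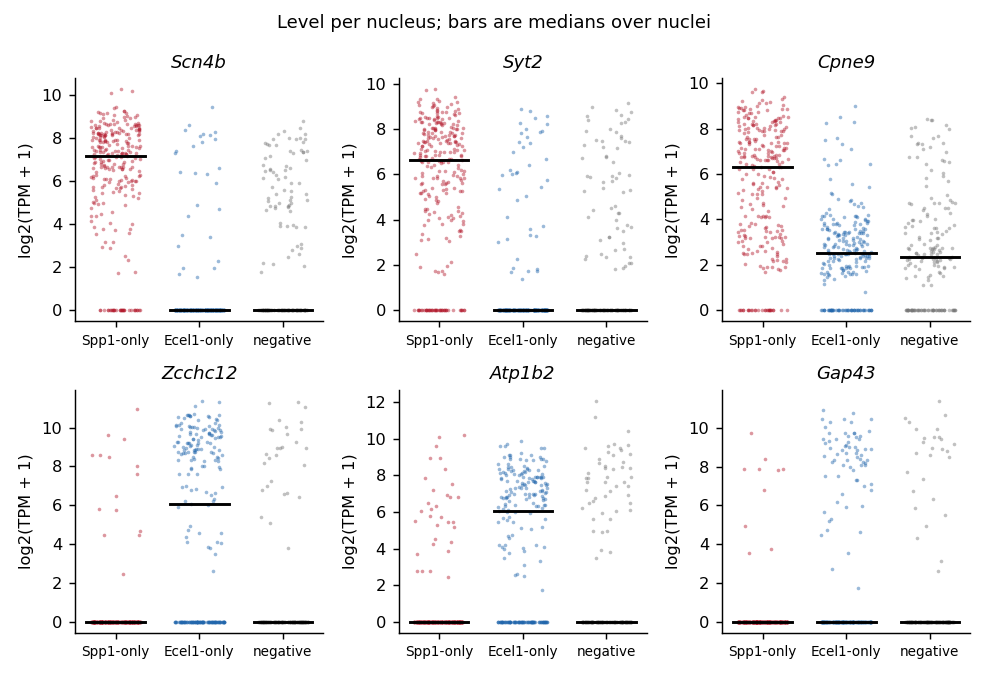
Level per nucleus as log2 of TPM plus 1 (vertical axes) of 3 genes called higher (upper row) and 3 called lower (lower row) in Spp1-only, Ecel1-only and negative nuclei. Points are nuclei and bars medians over nuclei. Scn4b is at 0 in most Ecel1-only and most negative nuclei. Zcchc12, Atp1b2 and Gap43 are at 0 in most Spp1-only and most negative nuclei, and Gap43 in most Ecel1-only nuclei as well. None of these 3 lower genes was called against negative nuclei.

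With nuclei limited to 4000 to 6000 detected genes (68.01% of Spp1-only and 70.4% of Ecel1-only nuclei, medians of 5193 and 4749 detected genes), all 61 higher genes kept a ratio above 0, and 59 stayed at or past 2-fold. All 53 lower genes kept a ratio below 0, and 51 stayed at or past 2-fold. With at most 10 TPM of summed glial markers in a nucleus (58.1% and 64.4% of the nuclei), a limit chosen after seeing the data, 61 of 61 and 52 of 53 stayed at or past 2-fold. Scn4b had log2 ratios of 3.57 and 3.54 under these limits, and Zcchc12 -4.13 and -4.87. The genes had been called on all nuclei, these among them, so the directions they kept are a description. Median detected genes still differed between the classes within the first limit.

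The second comparison set Spp1-only nuclei against negative nuclei of the same plates. Of 8643 genes that entered, 12 were called higher (0.139%, with Spp1) and 8 lower (0.0926%). Both comparisons share the Spp1-only nuclei, so their values are given side by side without an overlap count. Scn4b averaged 189.1 TPM in Spp1-only and 41.7 TPM in negative nuclei. Its plate means were 124.7 to 482.5 TPM against 0 to 87.9 TPM, again apart, with a log2 ratio of 2.15. F11r (2.72), Cpne9 (2.17), Pcp4l1 (1.73) and Ntng2 (1.64) were also called higher, as was Inhbb, an activin subunit, at 2.16, with 43.2 TPM in Spp1-only and 8.87 TPM in negative nuclei. Nefh (1.26), Nefm (1.21) and the axon guidance protein Sema7a (1.02) completed those named here. Syt2 had 1.82 and was higher on 14 of 15 plates, which missed the rule.

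Among the genes called lower against negative nuclei was Syt13, a synaptotagmin that lacks calcium binding, at -1.59. By plate, means were 0, 58.7 and 122.3 TPM in Spp1-only nuclei and 26.1, 171.1 and 360.3 TPM in negative nuclei, so these ranges overlapped. The neuronal RNA-binding protein Celf4 gave -1.44, Tmem91 -1.65, Pnmal2 -1.27 and the pseudogene Speer8-ps1 -1.40. Reads of a pseudogene can belong to near-identical copies, so the Speer8-ps1 value is uncertain. Median detected genes were 5264 in Spp1-only and 4397.5 in negative nuclei. Without glial transcripts above 10 TPM, or with both Pvalb and Six3 required, 0.528% and 0.300% of genes were called higher in place of 0.139%, and the cause was not tested. Against Ecel1-only nuclei the protein-coding genes Syt13, Celf4, Tmem91 and Pnmal2 were at -2.07, -2.18, -1.94 and -2.04.

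Sorts were also used as separate sets of plates. On the 8 NeuN-selected plates alone, 2.39% of 8990 genes were called higher and 1.79% lower. Leaving out Spp1 and Ecel1, 89.7% of the genes called higher there could be compared on the 7 unselected plates with enough nuclei, and 91.1% of these had a ratio above 0, against 50.6% of all genes. Their median log2 ratio was 1.24 on unselected plates and 1.43 on the NeuN-selected plates that chose them. Of 160 genes called lower, 85.6% could be compared and 98.5% of these had a ratio below 0, against 49.4% of all genes, at medians of -1.91 and -1.84. Ntng2 gave 3.38 on NeuN-selected and 5.62 on unselected plates, Scn4b 3.21 and 3.77, and Zcchc12 -4.13 and -4.31.

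Within Spp1-only nuclei, the level of Spp1 itself varied, and genes were ranked by Spearman's rho with it inside each of the 10 plates with at least 10 such nuclei (85.3% of the Spp1-only nuclei). The mean rho over plates of all 9007 genes had a median of 0.0034, and 51.8% were above 0. Genes of a nucleus share its library, so these values are a description. The 10 genes most like Spp1 included Sparcl1 (0.46), a secreted matrix protein, Pcp4l1 (0.42), Sema7a (0.36), Scn4b (0.36), Chga (0.34), a granule protein, the adhesion molecule Alcam (0.33), Kcnk1 (0.32), Inhbb (0.32) and the lysosomal protease Lgmn (0.31). Sparcl1 was positive on 10 of 10 plates, from 0.28 to 0.62. All 12 genes named as higher above had a positive mean rho, from 0.03 (B230312C02Rik) to 0.36 (Scn4b). B230312C02Rik was positive on 6 plates and negative on 4, and Cyp11a1 ran from -0.59 to 0.60 over plates. These 12 genes had been chosen on the same Spp1-only nuclei. None of the 12 genes named as lower had a rho, so the opposite direction was not tested for them. Genes with the most negative mean rho were Syt13 (-0.44), Slc12a5 (-0.40), Tle2 (-0.39), a corepressor, and Timp3 (-0.38), a metalloproteinase inhibitor. Syt13 was negative on 10 of 10 plates, and Sst reached a mean rho of -0.33. The number of detected genes had a mean rho with Spp1 of 0.09, from -0.23 to 0.45.

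Patch-seq samples were whole-cell contents of TRN neurons rather than sorted nuclei. By the same rule 29 of 78 reticular GABAergic samples were Spp1-only, 20 Ecel1-only, 16 negative and 13 had both. Median detected genes were 7131 in Spp1-only and 7813 in Ecel1-only samples, the opposite order to that in nuclei. Without Spp1, all 60 genes called higher in nuclei entered, and 57 had a ratio above 0, against 43.4% of all 10077 genes, and 31 were past 2-fold, against 10.1%. Of the 52 genes called lower, 49 entered and 48 had a ratio below 0, against 56.6% of all genes, with 37 past 2-fold, against 16.7%. Syt2 averaged 94.7 TPM in Spp1-only and 6.96 TPM in Ecel1-only samples (log2 ratio 3.59), and Scn4b 218.2 and 39.6 TPM (2.43). Zcchc12 averaged 4.10 TPM in Spp1-only and 190.2 TPM in Ecel1-only samples (-5.23), and Slc12a5 36.6 and 136.1 TPM (-1.87). Cacna1h (2.38) and Cacna1g (-4.04), which missed the rule in nuclei, had the same directions. Of the perineuronal net genes, Acan, the core protein, gave 2.74 with 14.6 and 1.34 TPM, and Ptprz1 gave -2.09. Of the Spp1-only samples, 28 of 29 had more of the 12 higher than of the 12 lower genes, against 3 of 20 Ecel1-only samples.

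**Figure D5:**
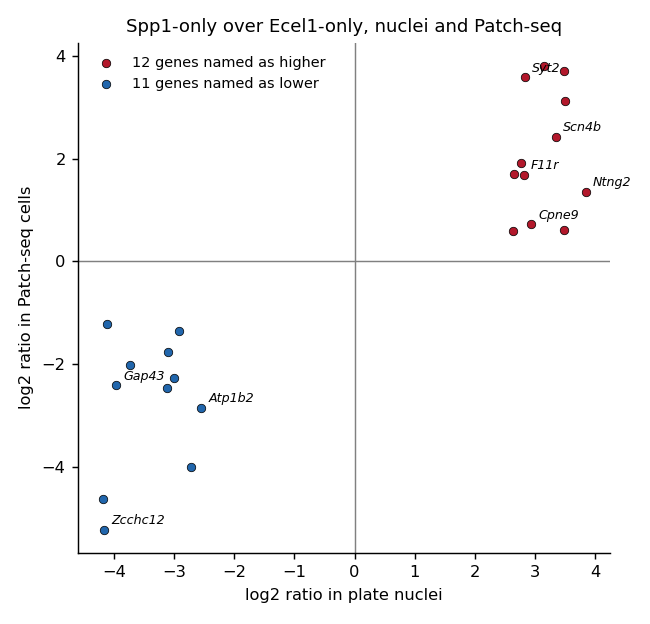
Log2 ratio of mean TPM plus 1, Spp1-only over Ecel1-only, in plate nuclei (horizontal axis) and in Patch-seq samples (vertical axis) for 12 genes with the largest positive and 11 with the largest negative ratios. Points are genes; all 23 lie on the same side of 0 in both, and Fnbp1l and Alk, with ratios of -1.22 and -2.01 in Patch-seq, were under the filter on low values there.

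On plates labelled TRN-adjacent, 22 of 51 nuclei that met the GABAergic rule were Spp1-only, 12 Ecel1-only and 17 negative. Levels in the adjacent Spp1-only nuclei are set beside those of the TRN plates. Six3 had a mean of 158.3 TPM in the adjacent and of 152.9 TPM in the TRN-plate Spp1-only nuclei, Scn4b 128.2 and 189.1 TPM, Syt2 259.5 and 154.04 TPM, and Pcp4l1 872.9 and 977.3 TPM. The pallidal markers Nkx2-1 and Lhx6 averaged 4.04 and 14.8 TPM in adjacent Spp1-only nuclei, and 1.29 and 0.05 TPM in those of the TRN plates, and Lhx6 was found in 4.55% of the 22 nuclei.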

How the data were processed

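The labels give single nuclei isolated on a sucrose gradient, sorted into plates and made into Smart-seq2 libraries, and Patch-seq samples. Seurat 2.2.0, TopHat2 2.0.10, Bowtie, RSEM and build mm10 appear in the submitters' processing notes, without the steps they served. Patch-seq values were deposited by the authors as TPM. For the TRN plates the authors deposited natural log values, ln(1 + f × TPM) with f between 0.288 and 6.03 and constant within a nucleus, as the values show. TPM were recovered by undoing the logarithm and rescaling each nucleus to 1000000. The deposited TPM are corrected for gene length and total, and every gene's value thus depends on all other genes of the nucleus. All 236907 values under 2 TPM then lay within 0.01 steps of a whole multiple of 0.01 TPM. Only nuclei with at least 1503 detected genes had values.

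Classes, plates and calls were as given above, with a pseudocount of 1 TPM. The 721 reticular GABAergic nuclei were 272 Spp1-only, 233 Ecel1-only, 178 negative and 38 with both transcripts. NeuN-selected plates held 211 Spp1-only nuclei of 505 and unselected plates 61 of 216. Members, gene groups and rules were chosen with earlier results of these data known. Named genes are the 12 with the largest positive and negative ratio among the calls against Ecel1-only nuclei, without the genes of the membership rule, 6 each against negative nuclei, up to 4 per gene group, and the 10 most like Spp1. Other called genes, and Scn8a, Vamp2, Tle2 and Timp3 among them, were named after their values were seen. Results for a few listed genes are not reported here. Gene positions came from GENCODE M21 (GRCm38), which matched 124 of 125 named genes. Alternatives included other scalings, pseudocounts, sorts, detected-gene limits, class limits and leaving out each plate. Computations ran in scipy 1.17.1, pandas 2.3.3, numpy 2.4.6 and matplotlib 3.10.9 under Python 3.11.15.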

Additional observations from a re-analysis of the deposited data

Results flagged for a closer look

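Ratios of the 24 genes with the largest differences were compared over the 8 NeuN-selected plates, and for 3 genes 1 plate stood far from the others; the limit used, Dixon's 95% critical value, is set so that chance passes it in about 1 of 20 groups. Ankrd33b had a log2 ratio of Spp1-only over Ecel1-only nuclei of 1.27 on 1 plate, and the next lowest plate had 3.76. Syt2 reached 7.32 on 1 plate, and the next highest had 4.31. Slc30a3 had -0.92 on 1 plate, and the next nearest to 0 had -4.74. In each case the direction was that of the other plates.

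Nuclei with both Spp1 and Ecel1, which no comparison used, numbered 38, or 7.52% of the reticular GABAergic nuclei of NeuN-selected plates (exact binomial 95% interval 5.38 to 10.2%), and 0 of about 220 on unselected plates, where 3 nuclei of the total, the limit a count of 0 allows, are 1.39% and the exact interval ends at 1.69%. Their median number of detected genes was 5393, against 5400 in Spp1-only and 4796.5 in Ecel1-only nuclei of the NeuN-selected plates. Spp1 averaged 1125.01 TPM in them and 2130 TPM in Spp1-only nuclei of those plates, and Ecel1 averaged 254.8 TPM against 591.3 TPM in Ecel1-only nuclei. Scn4b (92.1 TPM), Ntng2 (89.3 TPM) and Zcchc12 (112.9 TPM) lay between the Spp1-only means of 167.4, 175.9 and 20.2 TPM and the Ecel1-only means of 17.2, 16.02 and 371.03 TPM. Whether 2 nuclei shared a well was not tested.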

How the results depend on the processing

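No named gene that was called changed its direction under any alternative, but ratios of named genes moved by more than their SD over plates, 28 of them when mean log2 values were subtracted, 5 with a pseudocount of 10 TPM, 4 on unselected plates alone, and 1 each with 4000 to 6000 detected genes and with Pvalb and Six3 both required. Counts of calls are given here as a percentage of the genes that entered. With mean log2 values subtracted instead, 1.81% of genes were called higher than in Ecel1-only and 0.451% higher than in negative nuclei, and 29 listed genes were called. Fewer plates make a rule that asks for every plate easier to meet by construction. Limits that leave out nuclei can also lower the number of plates with enough nuclei of each class. On NeuN-selected plates alone 2.39% of genes were higher and 1.79% lower than in Ecel1-only nuclei, 0.837% and 0.294% than in negative nuclei, 43 listed genes were called and the Spp1-only share was 41.8%. On unselected plates alone these values were 1.73%, 1.38%, 0.998% and 0.624%, with a share of 28.2%. With 4000 to 6000 detected genes, 1.53% were higher and 1.14% lower than in Ecel1-only nuclei, 0.502% were higher than in negative nuclei, and 33 listed genes were called; the cause was not tested. With Pvalb and Six3 both required, 0.300% were higher than in negative nuclei and the share was 41.8%. With low glial markers, a limit chosen after seeing the data, 0.528% were higher and 0.153% lower than in negative nuclei. Leaving out the unselected plates that share a prefix, also added later, moved no count by over 1.5 times. Leaving out each plate in turn gave 0.681% to 0.851% higher and 0.591% to 0.748% lower against Ecel1-only nuclei, 0.138% to 0.197% and 0.0921% to 0.128% against negative nuclei, 17 to 22 listed genes, in place of 18, and shares from 36.3% to 38.4%.

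The labels give no animal and replicate numbers only name nuclei, so classes could be paired by plate but not by animal. With plates as replicate block, as a mean of within-plate ratios, 0.797% of genes were higher and 0.717% lower than in Ecel1-only nuclei, and 0.150% and 0.0926% than in negative nuclei. Read depth is unknown, so transcripts at 0 in a nucleus may have been missed.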
